A study of Mus musculus with 9 samples.

Results

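Cxcl2, Csf2 and Csf3 encode secreted factors that recruit or expand neutrophils and other myeloid cells, and the cytokine gene Lif was examined with them. Read counts of these genes were compared between RAW264.7 cells given a let-7c-5p mimic and control cells. The 4 genes were taken by name, and all 4 were present among the 311 genes of the count table. RAW264.7 is a mouse macrophage-like cell line, and all libraries were made from total RNA of this line grown in serum-containing medium, with no inflammatory stimulus named in the labels. 5 libraries came from cells transfected with let-7c-5p mimics, and they were set against Negative Control cells (4 libraries), to ask how the microRNA affects macrophage polarization and function. The labels call the libraries biological replicates without saying how the cultures were separated, so p-values measure the spread between these libraries. The sources used here give no dose, no time after transfection and no sequence for the control.

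The table limits what follows. It holds genes that already differed by about 2-fold between the groups, since no log2 ratio of group means lay closer to 0 than 0.98 where both means were above 0. The p-values below are therefore not independent evidence of a difference, and a fold change here is measured against the rest of the table. Column totals were 43241 to 83053 counts in the let-7c-5p libraries and 40655 to 50083 in the control libraries, which are sums over selected genes and not sequencing depths. None of 12 listed macrophage markers, 9 neutrophil markers, 7 fibroblast markers or 6 T cell markers was in the table, so the cell type label was not checked against them here.

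Macrophages that sense danger or bacterial products switch on these genes through NF-kappaB and AP-1, and their transcripts are normally short-lived because AU-rich elements in the 3′ untranslated region (UTR) recruit decay factors. Cxcl2 is a chemokine that attracts neutrophils through the receptor CXCR2. Csf3 is granulocyte colony-stimulating factor, which drives neutrophil production, Csf2 is granulocyte-macrophage colony-stimulating factor, which expands and activates granulocytes and macrophages, and Lif is a cytokine of the interleukin-6 family that signals through gp130. A microRNA lowers its direct targets mainly through pairing of its seed with sites in 3′ UTRs. The mature sequence that the mimic represents is shown from RefSeq (GRCm38.p6), with the seed, bases 2 to 8, in capitals, because the search for direct sites described further on used it. The same mature sequence is encoded by 2 mouse loci, Mirlet7c-1 at chr16:77599672-77599693 and Mirlet7c-2 at chr15:85706616-85706637, both on the plus strand.
mmu-let-7c-5p: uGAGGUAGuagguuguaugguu

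All 4 genes had lower counts in every let-7c-5p library than in any control library. Cxcl2, Csf3 and Lif fell, and Csf2, too low to be tested, had reads in the control libraries only. Of all 311 genes of the table, 19.3% were lower without overlap between the groups. In bulk RNA, fewer cells making a transcript and less transcript per cell cannot be told apart.

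Cxcl2 (ENSMUSG00000058427, chromosome 5) had the highest counts of the 4. It had 137, 163, 155, 455 and 75 counts in let-7c-5p replicates 1 to 5, against 2224, 3322, 2588 and 2940 counts in control replicates 1 to 4. The groups were far apart, and let-7c-5p replicate 4 stood above the others of its group. The means were 197 ± 148 counts with the mimic (SD, n = 5) and 2769 ± 471 counts in the control (SD, n = 4). Its log2 fold change in edgeR's quasi-likelihood test was -3.96 (SE 0.37, with Benjamini-Hochberg adjustment over all tested genes, adjusted p = 7.4e-07).

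Csf3 (ENSMUSG00000038067, chromosome 11), the granulocyte factor, was close to the detection floor with the mimic. It had 1, 1, 5, 4 and 2 counts in let-7c-5p replicates 1 to 5, against 53, 19, 20 and 24 counts in control replicates 1 to 4. Control replicate 1 was well above the other control libraries, which were close to each other. Csf3 averaged 2.6 ± 1.82 counts with the mimic and 29 ± 16.1 counts in the control (SD, n = 5 and 4), a log2 fold change of -3.56 (SE 0.54, edgeR adjusted p = 0.000111). Without control replicate 1 the log2 fold change was -2.91 (edgeR adjusted p = 0.000107).

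Csf2 (ENSMUSG00000018916, chromosome 11), the granulocyte-macrophage factor, had 0 counts in all 5 mimic libraries, against 8, 6, 3 and 4 counts in control replicates 1 to 4. Its 21 control counts were too few to pass the expression filter, so it was not among the tested genes. With a floor of 3 counts over the let-7c-5p group, the bound on the fall of Csf2 was 8.75-fold in deposited counts and 9.96-fold in scaled counts. This bound covers counting error in the let-7c-5p group only. It takes the control mean as exact, so the error of the 21 control counts and the spread between libraries are not covered. With no filter on low counts its edgeR adjusted p was 0.000227 and that of DESeq2 was 3.09e-05. These say little, since all 311 genes were called in the edgeR fit with no filter, and 237 of 311 in DESeq2.

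Lif (ENSMUSG00000034394, chromosome 11), the gp130 cytokine, had the smallest fitted change of the 3 tested genes. It had 6, 2, 8, 7 and 16 counts in let-7c-5p replicates 1 to 5, against 41, 47, 29 and 27 counts in control replicates 1 to 4. The highest let-7c-5p library, replicate 5, came closest to the control range without reaching it. Lif averaged 7.8 ± 5.12 counts with the mimic and 36 ± 9.59 counts in the control (SD, n = 5 and 4), a log2 fold change of -2.28 (SE 0.45, edgeR adjusted p = 0.000643).

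**Figure D1:**
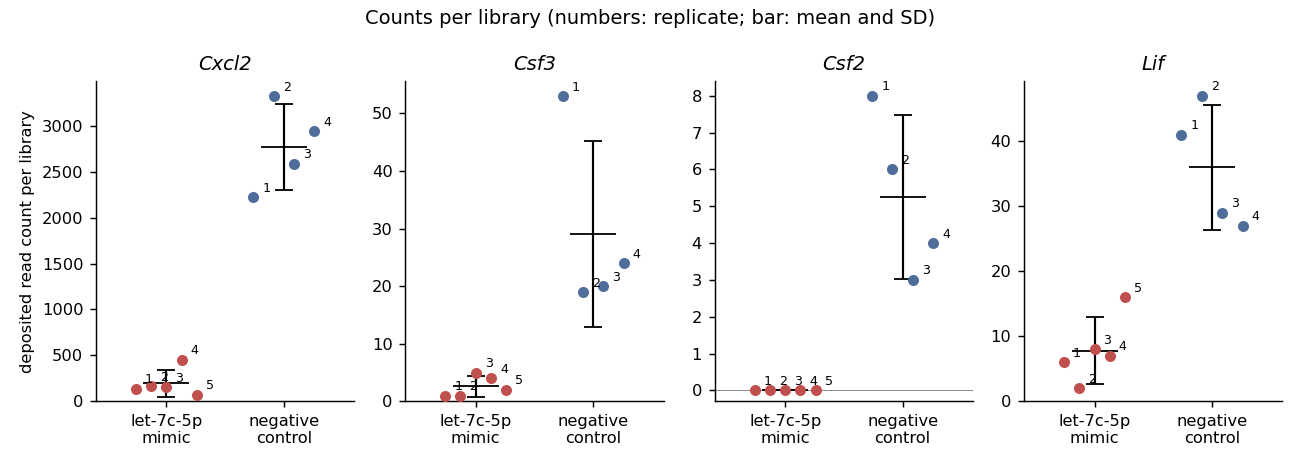
Deposited read counts of Cxcl2, Csf3, Csf2 and Lif (y axis, linear, one scale per gene) in each let-7c-5p mimic library (red, n = 5) and each negative control library (blue, n = 4), numbered by replicate, with the mean and SD as black bars. Every red point lies below every blue point, Csf2 is at 0 in all 5 mimic libraries, and the lone high points are 455 counts of Cxcl2 in mimic replicate 4 and 53 counts of Csf3 in control replicate 1.

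All 3 genes that passed the filter were called lower, where 48.3% of the 149 tested genes were called lower, 51% higher and 99.3% in either direction, so the calls by themselves say little in this selected table. The size of the change set Cxcl2 and Csf3 apart more, and Lif less. In order of log2 fold change, Cxcl2, Csf3 and Lif held places 1, 2 and 3 from the lowest of the 149 tested genes. Lif (-2.28, SE 0.45) lay close to Nfkbiz at place 4 (-2.24, SE 0.19) and to the cytokine gene Il23a at place 6 (-1.97, SE 0.32). Tnf, the most abundant cytokine of the table, fell by 1.33 on the log2 scale (SE 0.23). These places are a description with no test. Among these genes alone, leaving out those below the filter such as Csf2, Cxcl2 and Csf3 stayed in the lowest 2 places under all 16 alternative settings, while Lif moved between places 3 and 7, with place 7 reached when mimic replicate 4 and control replicate 1 were both left out.

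**Figure D2:**
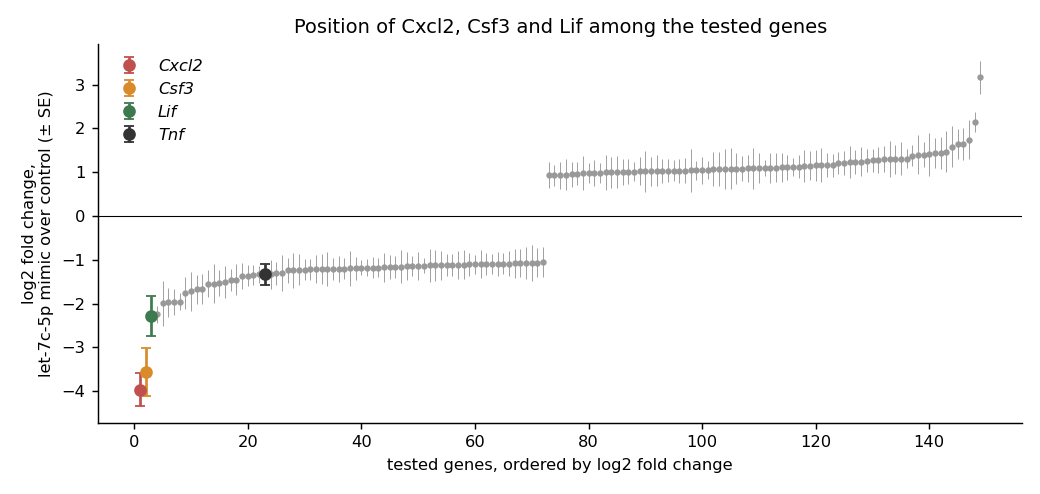
Log2 fold change, let-7c-5p mimic over negative control, of the 149 tested genes in rising order (x axis, rank), with the SE from the edgeR fit as bars. Cxcl2 (-3.96), Csf3 (-3.56) and Lif (-2.28) are the first 3 points, Tnf (-1.33) sits further along the lower genes, and no gene lies near 0 because the table was selected for differences.

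The abundance of the 4 transcripts was ordered in counts per kilobase of the longest annotated coding transcript (GENCODE M21). With the mimic, the means were 106 counts per kilobase for Cxcl2, 1.94 for Lif, 1.84 for Csf3 and 0 for Csf2. The mimic libraries spanned 0.708 to 3.54 for Csf3 and 0.497 to 3.97 for Lif, which overlap. The control means were 1490 counts per kilobase for Cxcl2, 20.5 for Csf3, 8.94 for Lif and 6.56 for Csf2. The control libraries spanned 13.4 to 37.5 for Csf3, 6.71 to 11.7 for Lif and 3.75 to 10 for Csf2, so that Lif and Csf2 did not differ beyond their spread there. These levels are approximate, since no source used here names the annotation behind the counts.

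Because depth is unknown, the genes were also compared within each library, where a ratio of counts does not depend on scaling. For every 100 Tnf counts there were 4.01, 4.41, 4.00, 10.5 and 2.03 Cxcl2 counts in let-7c-5p replicates 1 to 5, against 27.5, 38.4, 27.3 and 28.2 in control replicates 1 to 4. Cxcl2 therefore fell further than Tnf, which itself fell. The mean log2 ratio of Cxcl2 to Tnf was lower by a difference of -2.79 (SE 0.40) and the groups did not overlap (exact permutation test, two-sided, p = 0.0159, the smallest that 126 arrangements allow; adjusted p = 0.0476 over 6 ratios).

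Csf3 also fell relative to Tnf. For every 10000 Tnf counts there were 2.93, 2.71, 12.9, 9.27 and 5.41 Csf3 counts in let-7c-5p replicates 1 to 5, against 65.5, 22.0, 21.1 and 23.0 in control replicates 1 to 4. The difference in mean log2 ratio was -2.06 (SE 0.52, exact permutation test, p = 0.0159, adjusted p = 0.0476), with no overlap. Lif relative to Tnf differed by -1.07 (SE 0.51), and the groups overlapped (exact permutation test, p = 0.0794, adjusted p = 0.119). With 1 library left out, the adjusted p of the Cxcl2 and Csf3 ratios to Tnf was 0.0536 to 0.107, since fewer arrangements raise the smallest p that can be reached.

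The fold changes of the members could not be told apart from each other at this replication. The mean log2 ratio of Cxcl2 to Csf3 differed by -0.73 between the groups (SE 0.62, exact permutation test, p = 0.254, also after adjustment). That of Csf3 to Lif differed by -0.99 (SE 0.55, exact permutation test, p = 0.143, adjusted p = 0.171). Cxcl2 to Lif showed the widest gap among the members, -1.72 (SE 0.73, exact permutation test, p = 0.0635, adjusted p = 0.119), which passed the threshold with a pseudocount of 2 (-1.96, exact permutation test, adjusted p = 0.0317). The larger changes of Cxcl2 and Csf3 than of Tnf were already known when these ratios were chosen.

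**Figure D3:**
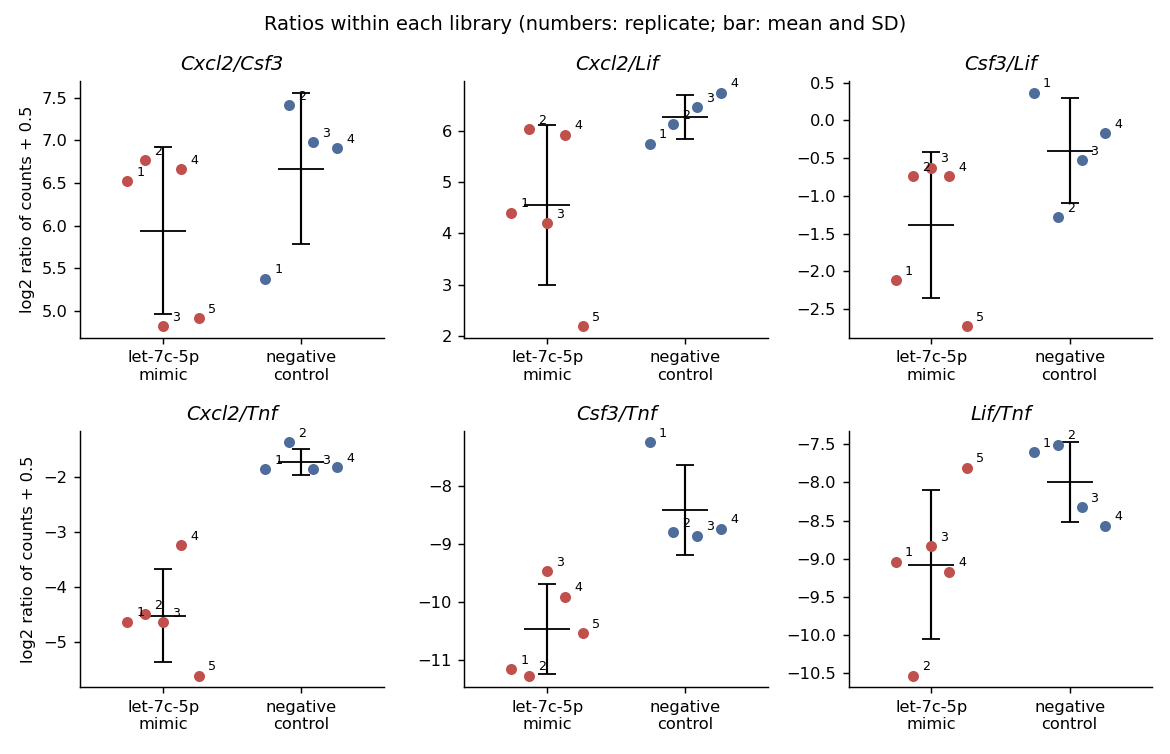
Log2 ratio of counts (each plus 0.5) between 2 genes within a library (y axis, one scale per panel) for let-7c-5p mimic libraries (red, n = 5) and negative control libraries (blue, n = 4), numbered by replicate, with the mean and SD in black. The groups are separate for Cxcl2/Tnf (difference -2.79) and Csf3/Tnf (-2.06) and overlap in the other 4 ratios.

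Whether the members moved together between replicates of a group was described library by library, since groups of 5 and 4 are too small for a correlation. With the mimic, the members did not share an order. Cxcl2 was highest in replicate 4 and lowest in replicate 5, whereas Lif was highest in replicate 5 and lowest in replicate 2, and Csf3 was highest in replicate 3. These positions held for deposited counts, TMM-scaled counts and column totals alike. On the TMM scale, let-7c-5p replicate 4 lay 1.26 log2 units above its group mean for Cxcl2, with Csf3 0.55 above and Lif at -0.10. Replicate 5 lay at -0.86 for Cxcl2 and at 1.49 for Lif. Tnf stayed within -0.29 and 0.23 of its group mean.

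In the control, Csf3, Csf2 and Lif were all higher in replicate 1 than in replicates 3 and 4 under all 3 scalings. Replicate 1 was highest in Csf3 and Csf2, at 1.34 and 0.98 log2 units above the TMM-scaled group means. For Lif and Csf2 replicate 2 was above replicates 3 and 4 as well. Cxcl2 was highest in replicate 2, at 0.39, and the place of replicate 1 varied with the scaling. The Csf2 pattern rests on 3 to 8 counts a library, where the variance was 0.94 times the mean, close to what counting alone gives.

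**Figure D4:**
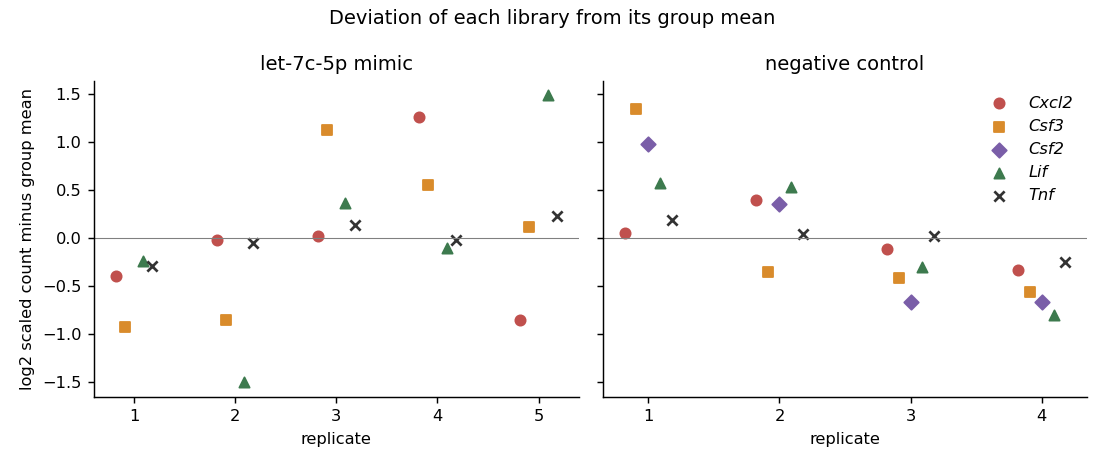
Log2 of the TMM-scaled count (plus 0.5) minus the mean of its own group (y axis), by replicate (x axis), for let-7c-5p mimic libraries (left) and negative control libraries (right), with Csf2 left out on the left because it was 0 throughout. On the left, Cxcl2 and Lif part in replicate 5 (-0.86 and 1.49), and on the right, Csf3 and Csf2 are highest in replicate 1 (1.34 and 0.98).

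The spread of the deposited counts between replicates is given beside what counting alone would give, without scaling and with no test. The coefficient of variation of Cxcl2 was 75.3% with the mimic and 17.0% in the control, where counting alone gives 7.12% and 1.90%. For Lif it was 65.6% with the mimic and 26.6% in the control, against 35.8% and 16.7% from counting. For Csf3 it was 69.9% with the mimic and 55.7% in the control, against 62.0% and 18.6% from counting.

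The genes with the most similar profile over the 9 libraries were found by the root mean square difference of centred log2 scaled counts, with no test. The measure takes in both the difference between the groups and the spread within them. For Cxcl2 these were Csf3 at 0.91 log2 units, Nfkbiz at 1.02 and Lcn2 at 1.05, where the median gene lay at 2.58. For Csf3 they were Lif at 0.90, Cxcl2 at 0.91 and Nfkbiz at 0.98. For Lif they were Spry4 at 0.74, the predicted gene Gm47260 at 0.76 and Ptgs2 at 0.79. Nfkbiz encodes an inducible nuclear IkappaB protein and had 264 ± 67.5 counts with the mimic and 1175 ± 153 in the control (SD, n = 5 and 4), a log2 fold change of -2.24 (SE 0.19, edgeR adjusted p = 4.31e-07). Lcn2, a siderophore-binding protein of neutrophil granules and activated macrophages, had 94 ± 58.5 counts with the mimic and 331 ± 70.8 counts in the control, a log2 fold change of -1.96 (SE 0.30). Like Cxcl2, Lcn2 and Ptgs2 were highest among mimic libraries in replicate 4, with 196 and 409 deposited counts. That library had the largest TMM scale of its group, 1.17. In deposited counts Nfkbiz (351) and Tnf (4313) were also highest there, and so was Ptgs1 (2021), which was called higher with the mimic. In deposited counts, being highest in replicate 4 is therefore not particular to genes that fell. After TMM scaling Cxcl2 stayed highest there, 1.26 log2 units above its group mean, while Tnf was at -0.02.

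Few other genes of these pathways were among the 311. Of 9 genes of the CXCR2 axis, Cxcl2 was the only one present, and of 10 colony-stimulating factors and related ligands, Csf2 and Csf3 were. Of 14 listed gp130 family ligands and receptors, Lif was the only one present. Il11ra2, an interleukin-11 receptor gene not on that list, was in the table but below the filter. It had 0 to 14 counts in the let-7c-5p libraries and 0 to 1 in the control libraries. None of 9 receptors for these factors, 14 JAK-STAT genes or 10 other chemoattractants was in the table, so the response of cells to the factors was not analysed here. None of the 10 nearest protein-coding neighbours of each gene in RefSeq order (GRCm38.p6) was in the table either, among them Cxcl1 and Cxcl3 beside Cxcl2, Il3 beside Csf2 and Osm beside Lif.

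A few regulators of these genes were in the table, and their calls are to be read against the 48.3% of tested genes called lower and the 99.3% called in either direction. Of 22 NF-kappaB and AP-1 regulators, 3 were tested and these fell: Nfkbiz, Tnfaip3, which restrains NF-kappaB signalling, by 1.13 on the log2 scale (SE 0.17), and the immediate early factor Egr1 by 1.10 (SE 0.22). Of 12 mRNA decay regulators, 1 was tested, Zc3h12c of the Regnase-type zinc finger family, and it fell by 1.18 (SE 0.17). Of 10 upstream inducers, Tnf fell and Il1b was below the filter, with 3 to 7 counts in the let-7c-5p libraries and 6 to 23 in the control libraries. Of 11 neutrophil granule and effector genes, Lcn2 and the protease gene Mmp9 were tested, and Mmp9 fell by 1.18 (SE 0.24). Cd177, on none of the lists and added for comparison, went the other way and was called higher with the mimic (edgeR adjusted p = 0.000643). It had 18 to 24 counts in the let-7c-5p libraries and 6 to 9 in the control libraries. Over all lists, 12 of 156 genes were tested, Cxcl2, Csf3 and Lif among them, with 10 called lower and 2 higher, beside 48.3% lower and 51% higher over all tested genes. Their median log2 fold change was -1.26, and since no tested gene lies near 0, a median over such a table mostly shows which direction is the more frequent. The 2 higher genes on the lists were Vwf and Itgax, listed as endothelial and dendritic cell markers, at 1.11 (SE 0.29) and 1.16 (SE 0.27). Both calls were lost with column totals (0.82 and 0.80, edgeR adjusted p = 0.0603 and 0.0525), where genes called higher dropped from 76 to 30 over the table. Both were kept under every other setting. With totals without Gm10123, Gm6061 and Rpl17 they were 1.56 and 1.55 (edgeR adjusted p = 0.000406 and 0.000103). The part of these markers in the results was not tested.

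The 3′ UTRs of the members were searched for 2 kinds of element, in the longest annotated 3′ UTR of each gene (GENCODE M21). The let-7 site CTACCTC, which pairs with the 7 seed bases, was in none of the 4, while 9.02% of 21037 coding genes and 3.85% of 52 lower genes with a 3′ UTR hold one. Absence says only that these letters are not in these windows.

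AU-rich elements were found in all 4 members, in different numbers and densities. The heptamer TATTTAT, counted with overlaps, was present 9 times in the 317 bases of Csf2, 7 times in 1494 bases of Cxcl2, 5 times in 3180 bases of Lif and 2 times in 669 bases of Csf3. As many heptamers or more are found in 0.128% of coding genes for Csf2, 0.276% for Cxcl2, 0.851% for Lif and 10.4% for Csf3. Tnf held 8, matched by 0.176% of coding genes. Presence alone is common: at least 1 heptamer is in 27.6% of 21037 coding genes. The shorter pentamer ATTTA is in 65.2% of them and in 90.4% of 52 lower genes. A shorter annotated 3′ UTR of Cxcl2, of 734 bases, held the same 7. The densest window of 29 bases in each gene is shown because it carries the element these transcripts share, with the pentamer ATTTA in capitals. The windows start at base 881 of the 3′ UTR of Cxcl2, base 232 of Csf2, base 26 of Csf3 and base 1141 of Lif.
Cxcl2: cttATTTATTTAtctatgtATTTATTTAt
Csf2: tttaaatATTTATTTATTTATTTATTTAt
Csf3: tagtttATTTAtctctATTTAatATTTAt
Lif: ctgtctATTTAttactatgtcctATTTAt

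The windows differ in how the pentamers are arranged. In Csf2, 5 of them overlap in 1 unbroken run, in Cxcl2 they form 2 pairs, and in Csf3 and Lif the 3 and 2 pentamers are separate. Heptamers were also more frequent among genes called lower, with at least 1 in 61.5% of 52 genes, against 13.6% of 59 genes called higher. The 3′ UTRs of the lower genes were longer, with a median of 1766.5 bases against 759 bases, and longer 3′ UTRs hold more matches by length alone. This is a description of annotated sequence with no test.

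**Figure D5:**
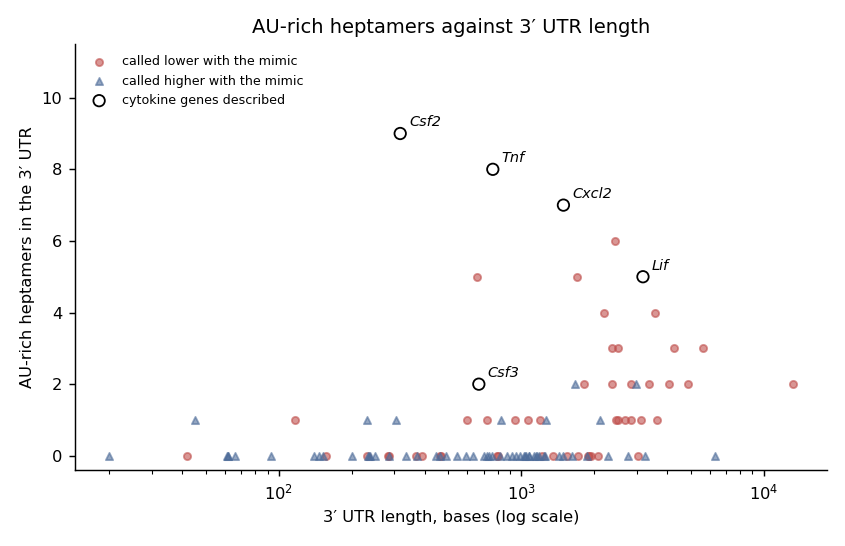
Number of AU-rich heptamers in the longest 3′ UTR (y axis) against its length in bases (x axis, log scale) for genes called lower (red circles) and higher (blue triangles) with the mimic, with Cxcl2, Csf2, Csf3, Lif and Tnf as open circles. Csf2 (9), Tnf (8) and Cxcl2 (7) lie above all other genes plotted, and Csf2 does so in a 3′ UTR of 317 bases.

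Promoters of 3 of the members, Cxcl2, Csf2 and Lif, were in the RefSeq table (GRCm38.p6), each from 250 bases before to 50 after the annotated start. They were searched on both strands for the 10-base kappaB motif (GGGA, any 2 bases, TTCC) and the AP-1 motif TGANTCA, which are in 1.47% and 7.81% of all 32851 promoters of that length. The Cxcl2 promoter (chr5:90903649-90903948, plus strand) held the kappaB motif once on each strand in overlapping positions, starting 97 and 96 bases before the start. The Lif promoter (chr11:4257318-4257617, plus strand) held the AP-1 motif 228 bases before the start, on both strands at once because the motif is its own reverse complement. The Csf2 window held neither, and nor did that of Tnf, so absence says only that these letters are not in these windows. Among genes with a promoter in that source, AP-1 was in 4.88% of 41 called lower and 17.8% of 45 called higher. The kappaB motif was in 4.88% and 0% of them, with no test. Both promoters with a match are shown with the matched bases in capitals.
Cxcl2: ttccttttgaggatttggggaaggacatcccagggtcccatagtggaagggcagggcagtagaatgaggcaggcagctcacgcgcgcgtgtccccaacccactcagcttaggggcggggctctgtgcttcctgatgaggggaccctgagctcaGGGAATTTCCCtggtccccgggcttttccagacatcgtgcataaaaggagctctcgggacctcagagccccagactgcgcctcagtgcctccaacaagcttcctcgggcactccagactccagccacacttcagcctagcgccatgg
Lif: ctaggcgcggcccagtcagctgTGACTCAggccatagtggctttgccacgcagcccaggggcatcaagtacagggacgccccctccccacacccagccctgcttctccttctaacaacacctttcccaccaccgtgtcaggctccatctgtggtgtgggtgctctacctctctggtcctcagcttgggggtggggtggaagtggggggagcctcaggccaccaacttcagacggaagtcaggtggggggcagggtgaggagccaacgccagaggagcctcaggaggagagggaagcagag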

How the data were processed

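Total RNA of RAW264.7 cells was sequenced in 9 libraries as 150-base paired reads, per the labels' protocols. The authors deposited raw read counts, as whole numbers, for 311 genes. FastQC 0.11.9, HISAT2 2.1.0, HTSeq 0.11.2, R 4.3.2 and DESeq2 1.4.2 are named in the submitters' processing notes, with no roles given, and no source used here names the genome build, strand handling, annotation or gene selection rule.

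All genes were tested together in edgeR 4.0.16 (R 4.3.3): TMM scaling, filterByExpr with its minimum count of 10, a two-sided quasi-likelihood test of group without covariates, Benjamini-Hochberg adjustment and a threshold of 0.05. SEs are the absolute log2 fold change over the square root of F. Ratios within libraries used a pseudocount of 0.5 and exact permutation tests (SciPy 1.17.1). Alternatives were other scalings, no filter, DESeq2 1.42.0, the replicate number as a block, pseudocounts of 1 and 2, and leaving out libraries. The edgeR and ratio steps were tested on simulated data. The edgeR simulation held unchanged genes, unlike this selected table, so it does not show how the scaling behaves here. Counts of every replicate pair differed beyond sampling noise (chi-square divided by its degrees of freedom, 3.29 to 120.9 over genes with at least 10 counts). Genes with very high counts weigh most in this figure, so it does not give the noise of a typical gene. Gm10123, for example, had 14146 and 49512 counts in let-7c-5p replicates 4 and 5. Genes named are the members, Tnf, up to 3 called genes per list and the 3 nearest profiles. Il11ra2, Il23a, Cd177 and Ptgs1 were added for comparison. The members, lists and tests were chosen with earlier results of these data known. Sequences came from RefSeq (GRCm38.p6) and GENCODE M21, by symbol or gene ID, and gene coordinates are not given.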

Additional observations from a re-analysis of the deposited data

Results flagged for a closer look

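In 31 groups of libraries examined for a single library far from the rest in deposited counts, 6 had one. About 1 in 20, or 1.55, would be flagged by chance if the groups were independent. They are not, since the genes share the same 9 libraries and some were chosen by their profile in these data. The 6 are therefore not read as an excess over chance. Cxcl2 had 455 counts in let-7c-5p replicate 4, where the other 4 mimic libraries had 75 to 163. In the same library Lcn2 had 196 counts (48 to 81 in the others) and Ptgs2 had 409 (219 to 255 in the others). Egr1 had 1048 counts in let-7c-5p replicate 5, where the others had 759 to 819. Csf3 had 53 counts in control replicate 1, where the other control libraries had 19 to 24. Gm47260 had 18 counts in control replicate 3, where the others had 12 to 13. None of the causes was tested.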

How the results depend on the processing

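Cxcl2, Csf3 and Lif remained lower and called under all 16 settings, with log2 fold changes of -4.39 to -3.51, -3.90 to -2.91 and -2.75 to -1.86, but the genes had been selected for a difference on these libraries. The Csf2 bound ranged from 5.78-fold to 12.4-fold. Column totals moved the median of all genes by -0.35, and totals without Gm10123, Gm6061 and Rpl17 by 0.42 (log2). Of the calls, 51.4% were higher with TMM, 29.4% with column totals, 61.1% with totals without those 3 genes and 40.5% with DESeq2. Against 76 higher and 72 lower genes, 30 were higher with column totals, 170 higher and 141 lower with no filter, and 141 lower with DESeq2; more genes are tested with no filter and in DESeq2. Leaving out each library gave 65 to 82 higher and 66 to 82 lower. With the replicate number as a block, 72 genes were called higher and 72 lower, and the members had -3.93, -3.46 and -2.75; deviations from the group means correlated best with the same number in 0 of 4 cases, so the numbers were not taken as pairs.

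The Cxcl2/Tnf difference ran from -3.11 to -2.52 and Csf3/Tnf from -2.31 to -1.67 with 1 library left out, never past the adjusted threshold because fewer arrangements are possible. With mimic replicate 4 and control replicate 1 both left out, chosen after seeing the data, they were -3.16 and -1.81 (adjusted p = 0.0857). Cxcl2/Lif passed with a pseudocount of 2 (-1.96). The unknown depth leaves Csf2 and Csf3 with the mimic at or near the floor.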
